A study of Mus musculus with 8 samples.

Results

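The Th2 cytokine cluster of mouse chromosome 11 holds Il4, Il13 and Il5, which encode cytokines of type 2 immunity, together with the neighbouring genes Kif3a, Rad50 and Irf1. The 6 genes were taken by name, out of 21755 protein-coding genes of the autosomes and X. The locus was their gene bodies, the sequence between them and 10 kb to either side, chr11:53557379-53788374 in GRCm38 with the gene models of GENCODE M21, 231 kb in all. It held 2724 of the 18714703 CpGs that had 5 or more reads in all 4 files, which is 94.0% of the 2897 CpGs the reference has there. It held 225 of the 2018320 windows of 1 kb with at least 3 such CpGs.

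The data are whole-genome bisulfite sequencing of spleen lymphocytes from untreated C57BL/6J mice, an inbred laboratory strain, at 6 to 8 weeks of age. The T cells were naive CD4+ cells sorted as CD62L high, CD44 low and CD25-, and the B cells were resting CD43- cells. Each sex and cell type had 2 samples, 8 in all, and each was pooled over several animals. Each of the 4 groups (B and T cells of females, B and T cells of males) had 1 file, and the labels do not say whether that file merges both samples, so T against B was seen once in females and once in males. Bisulfite reads 5-methylcytosine and 5-hydroxymethylcytosine alike, and a level is the share of unconverted reads. Per the labels part of each sample was also oxidized, which would separate the 2 marks, and the files used here are named as plain bisulfite.

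Il4, Il13 and Il5 are silent in naive CD4+ T cells and are switched on together when these cells become Th2 cells, under the factors GATA3 and STAT6. The 3′ end of Rad50, a gene for a DNA repair protein that every cell uses, is known to hold a locus control region that acts on the cytokine genes next to it. Kif3a encodes a motor protein needed for cilia, and Irf1 a transcription factor of the interferon response. Methylation of a CpG-rich promoter is as a rule low whether or not the gene is used, whereas in CpG-poor sequence low methylation often marks regulatory elements.

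The depth at CpGs of the locus averaged between 14.7 and 18.1 reads per file, which limits the precision of a single CpG, and a 1 kb window rested on a median of 171 reads per file. Bounds in parentheses are 95% Wilson intervals and cover counting error only. The labels were checked on marker genes. By the test described with the promoters below, 6 of 6 T cell marker promoters (Cd3d, Cd3e, Cd3g, Lck, Cd5, Cd6) were lower in T cells and the B cell marker promoters of Cd79a, Cd79b, Ms4a1, Blk and Cd22 were higher. Of 3 myeloid and 2 natural killer cell marker promoters, 0 were called by the quasi-binomial model, although Spi1 at 13.6 and Lyz2 at 19.3 points higher in T cells had an adjusted p under 0.05.

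The promoter sequences of the cytokine genes differ from that of Irf1 in how many CpGs they hold, and the levels given further on follow that split. The RefSeq promoter table used here (GRCm38.p6), which is not complete, gave a sequence from 250 bases before to 50 after the start for 5 of the 6 members. Those of Il4, Il13, Il5 and Irf1 are shown 5′ to 3′ on the gene's strand, with each CG in capitals.
Il4 promoter (chr11:53618616-53618915, minus strand): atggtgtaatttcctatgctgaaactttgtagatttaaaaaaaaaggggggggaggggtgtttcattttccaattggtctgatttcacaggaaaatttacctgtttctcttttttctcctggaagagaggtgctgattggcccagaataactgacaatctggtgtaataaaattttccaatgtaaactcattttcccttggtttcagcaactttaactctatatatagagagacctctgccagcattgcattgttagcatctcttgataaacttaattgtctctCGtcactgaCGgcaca
Il13 promoter (chr11:53634653-53634952, minus strand): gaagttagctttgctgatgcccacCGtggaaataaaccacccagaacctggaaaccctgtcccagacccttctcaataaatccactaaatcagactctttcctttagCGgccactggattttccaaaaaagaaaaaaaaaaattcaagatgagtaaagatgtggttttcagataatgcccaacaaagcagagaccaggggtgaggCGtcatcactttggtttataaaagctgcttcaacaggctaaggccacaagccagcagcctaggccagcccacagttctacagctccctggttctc
Il5 promoter (chr11:53720544-53720843, plus strand): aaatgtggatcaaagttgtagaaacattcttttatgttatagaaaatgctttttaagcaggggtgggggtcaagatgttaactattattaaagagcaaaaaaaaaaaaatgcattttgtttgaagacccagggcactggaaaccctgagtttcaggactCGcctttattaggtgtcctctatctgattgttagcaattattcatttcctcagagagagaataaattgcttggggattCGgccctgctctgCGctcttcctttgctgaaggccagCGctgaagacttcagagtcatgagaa
Irf1 promoter (chr11:53769764-53770063, plus strand): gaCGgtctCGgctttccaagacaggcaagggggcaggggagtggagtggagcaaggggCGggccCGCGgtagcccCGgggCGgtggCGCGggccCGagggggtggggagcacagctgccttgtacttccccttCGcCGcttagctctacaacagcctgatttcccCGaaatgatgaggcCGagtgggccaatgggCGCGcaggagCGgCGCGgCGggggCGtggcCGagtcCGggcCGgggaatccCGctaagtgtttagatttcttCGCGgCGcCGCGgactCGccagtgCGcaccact

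Il4 had 2 CGs in its 300 bases, Il13 3 and Il5 4, against a median of 7 over 32851 promoter sequences, and 85.9%, 76.7% and 68.6% of those sequences held as many or more. Kif3a had 18 and Irf1 32, a number that 9.52% of promoter sequences reached. The GATA core AGATAA, searched on both strands, was found in the Il13 sequence alone of these 5 and in 11.2% of all promoter sequences. The STAT6 motif, TTC and GAA with 4 bases between them, was found in that of Il4 alone and in 6.95% of all. A match describes letters and is not a bound site.

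The second set shows 4 stretches of 300 bases at which T and B cells differed, described below, each centred on a run of neighbouring CpGs that differed by 20 points or more. They are shown 5′ to 3′ on the plus strand of GRCm38, again with each CG in capitals.
Rad50 intron 22, lower in T (chr11:53655171-53655470, plus strand): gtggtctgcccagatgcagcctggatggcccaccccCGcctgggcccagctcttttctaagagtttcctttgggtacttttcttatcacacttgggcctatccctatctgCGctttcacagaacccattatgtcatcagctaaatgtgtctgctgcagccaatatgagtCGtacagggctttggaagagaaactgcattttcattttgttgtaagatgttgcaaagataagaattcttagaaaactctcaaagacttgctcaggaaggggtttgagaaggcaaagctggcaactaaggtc
Kif3a intron 9, higher in T (chr11:53588329-53588628, plus strand): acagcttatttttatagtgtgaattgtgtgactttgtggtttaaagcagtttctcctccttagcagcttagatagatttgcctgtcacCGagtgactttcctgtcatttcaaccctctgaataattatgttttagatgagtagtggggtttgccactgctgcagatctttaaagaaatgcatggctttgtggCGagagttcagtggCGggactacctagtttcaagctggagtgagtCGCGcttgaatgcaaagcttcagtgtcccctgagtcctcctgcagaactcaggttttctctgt
spacer between Il5 and Irf1, higher in T (chr11:53748681-53748980, plus strand): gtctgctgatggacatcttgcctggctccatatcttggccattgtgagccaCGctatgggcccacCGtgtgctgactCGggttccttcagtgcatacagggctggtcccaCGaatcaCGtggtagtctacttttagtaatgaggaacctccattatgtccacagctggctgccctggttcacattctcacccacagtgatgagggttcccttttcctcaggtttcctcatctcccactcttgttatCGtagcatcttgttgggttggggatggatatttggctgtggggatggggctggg
spacer upstream of Irf1, higher in T (chr11:53768917-53769216, plus strand): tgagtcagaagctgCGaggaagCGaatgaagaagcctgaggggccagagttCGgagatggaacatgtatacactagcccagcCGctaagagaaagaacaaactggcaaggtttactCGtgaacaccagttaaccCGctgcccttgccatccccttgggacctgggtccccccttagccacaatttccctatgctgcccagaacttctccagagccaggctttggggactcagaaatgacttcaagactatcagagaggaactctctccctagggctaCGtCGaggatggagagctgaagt

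Promoters were taken as the annotated start with 1 kb to either side, and gene bodies from start to end. Methylated and unmethylated reads of each feature were fitted by a quasi-binomial model of cell type and sex, with dispersions moderated by limma over the whole genome and Benjamini-Hochberg adjustment over all features of a kind. A feature counted as called when the adjusted p was under 0.05 and T and B cells differed by at least 20 percentage points on average over the sexes. With a single file per group, these p-values rest on the spread between 4 files and not between animals. For windows that spread was a single value shared by all windows, so a window's own spread between files did not enter its p-value. Under this rule 0.915% of 21082 promoters were called (0.484% lower and 0.432% higher in T cells), and 0.319% of 21299 gene bodies (0.230% lower and 0.0892% higher). Values are given below with females first and males second, for B cells and then for T cells.

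The cytokine promoters were highly methylated in both cell types. The promoter of Il4, the cytokine that drives Th2 differentiation and IgE class switching, lies at chr11:53617669-53619669 and held 28 CpGs. It stood at 87.1% (83.2 to 90.2) and 85.2% (81.6 to 88.2) in B cells and at 88.8% (85.7 to 91.3) and 88.4% (85.1 to 91.1) in T cells. All 4 intervals overlapped, and the difference of 2.44 points had an adjusted p of 0.714 in the quasi-binomial model. The promoter of Il13, a cytokine that acts on airway and gut epithelium (chr11:53633702-53635702, 34 CpGs), stood at 94.4% and 92.0% in B cells and 91.8% and 91.6% in T cells, adjusted p 0.734. The promoter of Il5, the growth factor of eosinophils (chr11:53719794-53721794, 17 CpGs), stood at 91.3% and 93.9% in B cells and 92.3% and 93.8% in T cells, adjusted p 0.968. These 3 were at 80% or more in all 4 files, as were 20.5% of all promoters tested.

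The 300 bases printed above were at 100% and 96.6% in B cells and 100% and 96.2% in T cells for Il4, from 26 to 43 reads per file. For Il13, 3 CpGs were at 94.6% and 95.8% in B cells and 82.4% and 82.6% in T cells, from 34 to 48 reads per file. The T files were below the B files in both sexes there, but the intervals overlapped and the stretch was not tested on its own.

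The promoters of the other members were low in both cell types, under 20% in all 4 files, as were 52.7% of all promoters. The Rad50 promoter (chr11:53706319-53708319, 85 CpGs) stood at 4.68% and 2.89% in B cells and 2.82% and 3.36% in T cells, adjusted p 0.80. The Kif3a promoter (chr11:53566379-53568379, 84 CpGs) stood at 12.8% and 11.2% in B cells and 12.3% and 11.1% in T cells, adjusted p 0.95. The Irf1 promoter (chr11:53769014-53771014, 121 CpGs) stood at 5.38% (4.39 to 6.57) and 3.33% (2.64 to 4.20) in B cells and 8.19% (7.01 to 9.56) and 7.59% (6.59 to 8.73) in T cells. Both T files lay above both B files without overlap of the intervals, by 3.54 points on average, adjusted p 0.0456. The adjusted p was 0.230 with limma on log2 ratios and 0.199 with cell type alone in the model. With the dispersion prior taken from all promoters it was not under 0.05 either. It was 0.0097 with Fisher's exact test, 0.0036 as a mean over CpGs and 4.64e-04 with 10 reads required. The fit of means took the mean level times the read total as its counts. Its p-value therefore does not rest on observed methylated reads. Fisher's exact test takes each read as an independent unit. The difference was between 2.51 and 4.56 points when each file was left out. Within 500 bp of the start it was 0.254 points, adjusted p 0.754. In all, 0 of 6 member promoters were called, with 1 at an unadjusted p under 0.05 by the quasi-binomial model. All 6 differences were under 20 points, so limma and Fisher's exact test in each sex could call none either.

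**Figure D1:**
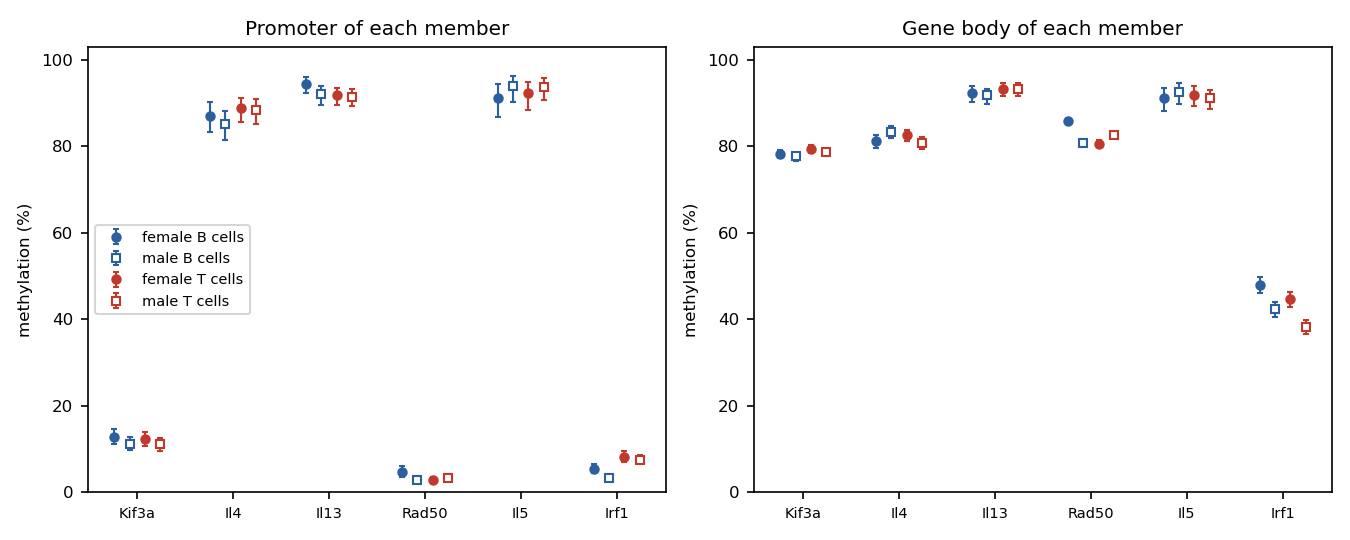
Methylation (%) of the promoter (left) and gene body (right) of each member, with 1 point per file and bars for the 95% Wilson interval. B cells are blue and T cells red, females filled circles and males open squares. The promoters of Il4, Il13 and Il5 lie above 80% in every file and those of Kif3a, Rad50 and Irf1 below 20%.

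Of the gene bodies 0 of 6 were called, with 0 at an unadjusted p under 0.05 in the quasi-binomial model. All 6 differences were under 20 points, so limma and Fisher's exact test could call none either. At any size, the adjusted p was under 0.05 with Fisher's exact test for Irf1 (0.0272). With levels taken as means over CpGs it was so for Il13 (0.0389, 1.97 points), Rad50 (0.0030, -1.42 points) and Irf1 (0.0032, -3.25 points). The fits of means used rescaled counts, as for the promoters, in place of observed methylated reads. The Il13 body (chr11:53631324-53634702) stood at 92.4% and 91.8% in B cells and 93.3% and 93.4% in T cells. The Il5 body (chr11:53720794-53725106) stood at 91.2% and 92.6% in B cells and 91.9% and 91.2% in T cells. The annotated Il4 gene (chr11:53602982-53618669) includes a noncoding transcript beyond the coding one, and stood at 81.3% and 83.3% in B cells and 82.5% and 80.9% in T cells. Its coding transcript alone (chr11:53612460-53618669) stood higher, at 92.1% and 91.7% in B cells and 94.7% and 94.4% in T cells. The Kif3a body (chr11:53567379-53601967) stood at 78.3% and 77.7% in B cells and 79.5% and 78.6% in T cells.

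The Rad50 body (chr11:53649519-53707319) stood at 85.9% and 80.9% in B cells and 80.6% and 82.7% in T cells, with the female B file above the other 3. Taken as the mean over its 578 CpGs, in place of all reads together, the levels were 85.4% and 85.0% in B cells and 83.8% and 83.7% in T cells. The Irf1 body (chr11:53770014-53778374) was the lowest of the 6, at 48.0% and 42.4% in B cells and 44.6% and 38.3% in T cells, adjusted p 0.314. Of all gene bodies, 12.2% were at 50% or less in all 4 files.

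Of exons with 3 or more CpGs, 12 of 14 in Rad50, 11 of 12 in Kif3a, 3 of 3 in Il4, 2 of 3 in Il13, 1 of 2 in Il5 and 2 of 7 in Irf1 were at 90% or more in all 4 files. The first exons of the genes with CpG-rich starts were low, with Irf1 exon 1 between 0% and 0.418%, Rad50 exon 1 between 0% and 0.148% and Kif3a exon 1 at 0% throughout. The other Rad50 exon under 90% was exon 22, at 97.4% and 98.2% in B cells and 69.7% and 82.6% in T cells over 3 CpGs. It lies next to intron 22, described below. In Irf1, exon 3 was at 39.5% and 47.6% in B cells and 24.5% and 24.3% in T cells, and exon 9 at 78.3% and 66.7% in B cells and 76.3% and 86.2% in T cells, over 3 CpGs each.

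Across the 225 windows of the locus, 174 (77.3%) were at 80% or more in all 4 files, against 73.2% of all windows, and 16 (7.11%) at 50% or less in all 4, against 3.21%. The level of the whole locus was 74.7% and 72.8% in B cells and 75.2% and 73.8% in T cells. The mean difference, T minus B, was 0.794 points, which was less than the difference between the sexes within either cell type. It was not tested, and was -0.188 points without the male B file and 1.77 points without the female B file.

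**Figure D2:**
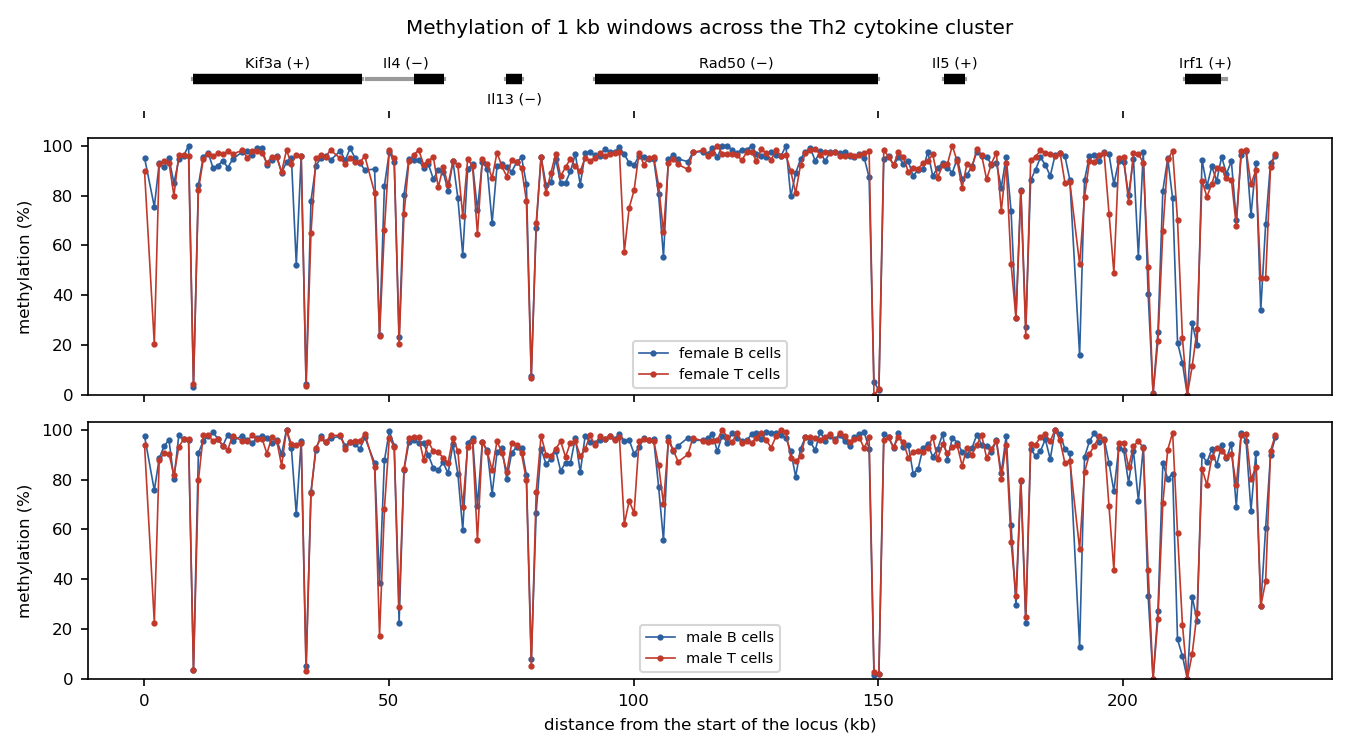
Methylation (%) of the 1 kb windows against distance from the start of the locus (kb), females above and males below, B cells blue and T cells red. At the top, black bars are the main coding transcripts and grey lines the rest of the annotated genes, with their strand. Of the 225 windows 174 lie at or above 80% in all files, and low windows shared by both cell types stand at the starts of Kif3a, Rad50 and Irf1 and at several places between genes.

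T and B cells differed in 9 windows, 5 lower and 4 higher in T cells. That is 4.00% of the windows of the locus, against 2.08% of all windows, with 2.22% lower (1.16% of all) and 1.78% higher (0.913% of all). Windows of the locus held a median of 10 CpGs, against 7 over all windows, and of 171 reads per file, against 106. The shares were not adjusted for this. The 250 kb on either side had similar shares, with 9 of 222 windows (4.05%) before and 9 of 229 (3.93%) after. Of the 9, 4 lay in the spacer between Il5 and Irf1, 2 in the 3′ part of Rad50, 1 in Kif3a and 1 in each flank. There were 0 called among the windows overlapping Il4 (16), Il13 (4), Il5 (6) and Irf1 (9), between Il4 and Il13 (12), between Il13 and Rad50 (14) or between Rad50 and Il5 (12), numbers too small to set 0 apart from the 2.08% of all windows. A further 17 windows of the locus had an adjusted p under 0.05 with a difference under 20 points. The share of all windows in that class was not counted, so this number does not set the locus apart.

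The moderation gave windows a common dispersion of 1.31, so very small p-values overstate the certainty of a single window. With the dispersion prior taken from all windows, in place of those with enough reads of both kinds, the quasi-binomial model called 0 windows of the locus and 0 of the genome, and the 9 had adjusted p between 0.0561 and 0.142. At the same threshold limma called 6, against 1.02% of all windows. Fisher's exact test in each sex called 9, against 1.75% of all windows. Fisher's test takes each read as an independent unit and holds no spread between files.

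**Figure D3:**
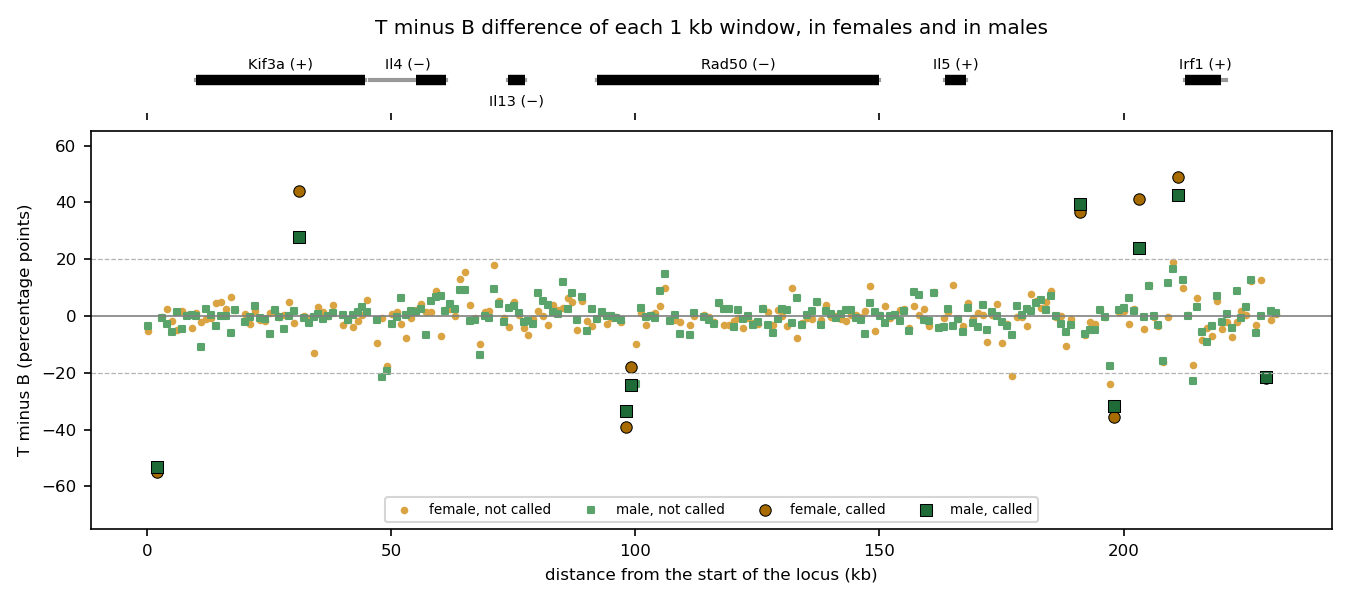
T minus B difference in percentage points for each 1 kb window against distance from the start of the locus (kb), in females (circles) and males (squares), with called windows larger and outlined. Dashed lines mark 20 points in either direction. The 9 called windows, chosen by their mean difference over the sexes, lie on the same side of 0 in both, and 4 of them lie between Il5 and Irf1.

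In the 3′ part of Rad50 a pair of short runs of CpGs was lower in T cells, while the exons and introns from exon 23 to the end of the gene differed by less than 2 points on average. The window chr11:53655001-53656000, which reaches from exon 23 into intron 21 and lies at -20.8 kb from the Il13 start (negative distances are upstream), stood at 96.6% (91.5 to 98.6) and 95.5% (91.3 to 97.7) in B cells and 57.4% (50.5 to 64.0) and 62.1% (53.9 to 69.8) in T cells. The T files were lower in both sexes, with differences of -39.1 points in females and -33.3 in males, adjusted p 9.06e-21. The difference was held by 5 neighbouring CpGs within 444 bp (chr11:53655099-53655542), which stood at 95.6% and 95.6% in B cells, while T cells had 39.1% and 46.2%. Intron 22 as a whole, part of which is printed above and holds 1 AGATAA, stood at 97.0% and 93.8% in B cells and 45.4% and 48.2% in T cells.

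The next window, chr11:53656001-53657000 in intron 21, stood at 93.1% and 95.7% in B cells and 75.2% and 71.4% in T cells, adjusted p 3.00e-08. With limma its adjusted p was 0.0586, and its mean difference of -21.1 points was under 20 points in size without the male B file (-19.8) or without the male T file (-19.3). The window after it, chr11:53657001-53658000, stood at 92.2% and 90.4% in B cells and 82.2% and 66.6% in T cells, and its difference of -16.9 points was under the threshold in size. A second run of 6 CpGs within 142 bp (chr11:53656956-53657097) lies across the border of these windows and stood at 80.3% and 85.4% in B cells, while T cells had 25.2% and 17.0%. Further into intron 21, chr11:53663001-53664000 was at 55.5% and 55.6% in B cells and 65.2% and 70.2% in T cells, 12.2 points higher in T cells at an adjusted p of 0.0335.

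**Figure D4:**
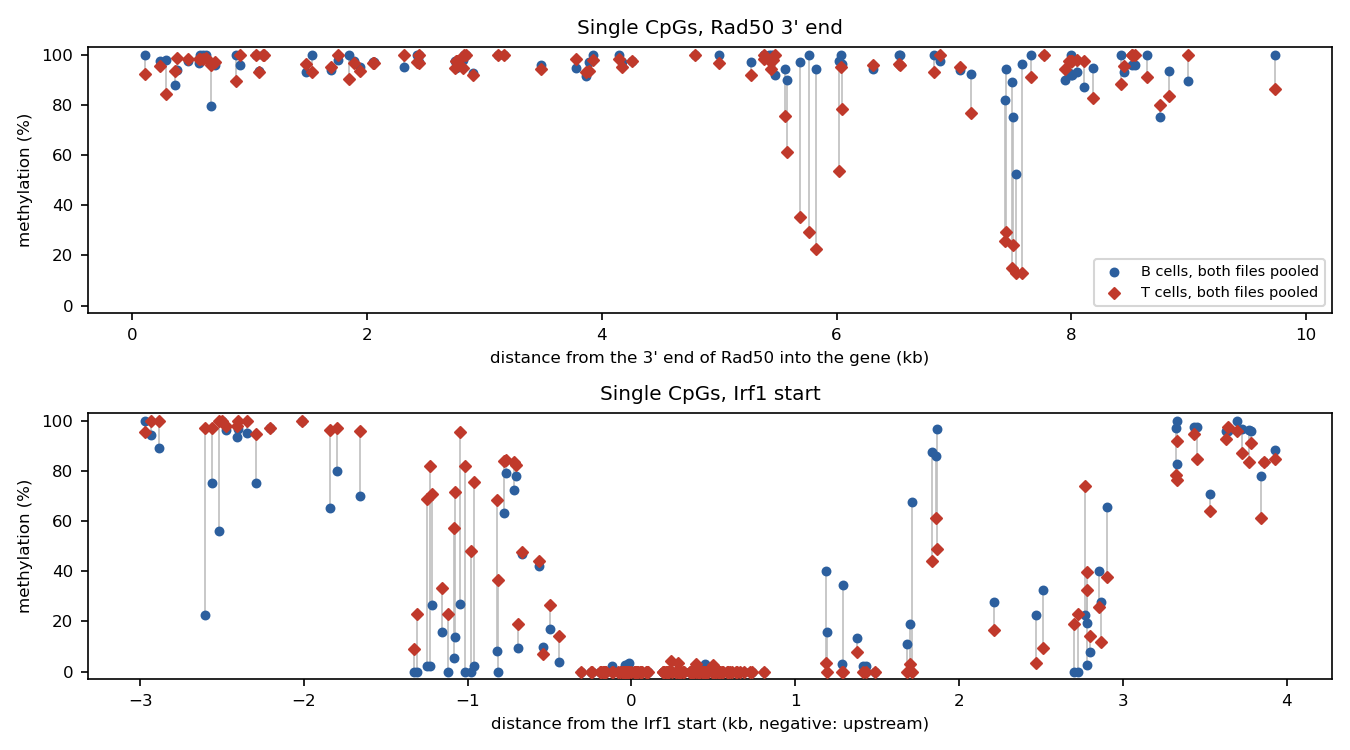
Methylation (%) of single CpGs in the pooled reads of both B cell files (blue circles) and both T cell files (red diamonds), with a grey line joining the values of 1 CpG. Above is the 3′ part of Rad50, against distance from its 3′ end (kb), where T cells are low at a pair of narrow runs at which B cells are mostly high. Below is the Irf1 start, against distance from it (kb), where both are near 0 at the start and differ at its upstream and downstream borders.

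Around the Irf1 start the low region had different borders in the cell types. At the start itself, chr11:53770001-53771000 with 82 CpGs stood between 0% and 0.260% in the 4 files. Upstream, chr11:53768001-53769000, at -1.51 kb from the start, stood at 21.1% (16.5 to 26.5) and 15.9% (12.2 to 20.6) in B cells and at 70.0% (64.3 to 75.2) and 58.5% (52.6 to 64.1) in T cells. It was 45.8 points higher in T cells, adjusted p 2.92e-40, and 14 of its 15 CpGs were higher in T cells and 0 lower. A low stretch of B cells there (chr11:53768687-53769198, 15 CpGs) stood at 9.49% and 5.13% in B cells and 60.5% and 52.9% in T cells. This stretch was delimited by its level in B cells and was not tested. The window before it, chr11:53767001-53768000, was at 78.9% and 82.4% in B cells and 97.9% and 98.8% in T cells, 17.7 points higher in T cells and under the threshold.

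Downstream the order was turned round. The window chr11:53771001-53772000, over exon 2 of Irf1, stood at 28.9% and 32.9% in B cells and 11.7% and 10.2% in T cells. Its difference of -19.96 points fell just short of the threshold, at an adjusted p of 8.59e-11, while the smallest called difference of the locus was -21.1 points. A run of 4 CpGs in intron 2 (chr11:53771725-53771878) stood at 79.0% and 85.9% in B cells and 39.3% and 42.9% in T cells. Also in intron 2, 4 CpGs within 59 bp (chr11:53772741-53772799) went the other way, with 13.3% and 10.4% in B cells and 42.1% and 43.2% in T cells.

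The spacer between Il5 and Irf1, 44.9 kb long, had 3 further called windows and differences in both directions. The window chr11:53748001-53749000, at -21.5 kb from the Irf1 start, stood at 16.0% (12.2 to 20.6) and 12.8% (9.17 to 17.6) in B cells and at 52.5% (46.4 to 58.5) and 52.2% (45.7 to 58.6) in T cells, adjusted p 3.87e-28. A stretch of 8 CpGs at its beginning (chr11:53747934-53748321) was low in both cell types, at 6.25% and 5.00% in B cells and 19% and 18.3% in T cells. The 6 CpGs of the printed sequence, further on, stood at 10.7% and 9.62% in B cells, while T cells had 60.2% and 71.4%.

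The window chr11:53760001-53761000, at -9.51 kb from the Irf1 start, stood at 55.6% and 71.4% in B cells and 96.7% and 95.5% in T cells, adjusted p 3.02e-28. Within it 5 CpGs in 40 bp (chr11:53760162-53760201) were at 18.9% and 45.1% in B cells, while T cells had 97.6% and 95.8%. The window chr11:53755001-53756000 was lower in T cells, at 84.6% (73.9 to 91.4) and 75.3% (64.9 to 83.4) in B cells and 49.0% (39.2 to 58.8) and 43.7% (32.8 to 55.2) in T cells. It rested on 5 CpGs and 65 to 96 reads per file, with an adjusted p of 2.99e-06, and 0.0801 with limma. A stretch of 64 CpGs in the same spacer (chr11:53762758-53764410), at -6.43 kb from the Irf1 start, was low in both cell types, at 2.63% and 2.21% in B cells and 3.31% and 1.93% in T cells.

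Kif3a and the flanks held the other called windows. In Kif3a intron 9, chr11:53588001-53589000 stood at 52.4% (46.5 to 58.2) and 66.1% (60.3 to 71.4) in B cells and at 96.2% (93.1 to 97.9) and 94.0% (90.9 to 96.1) in T cells, adjusted p 2.97e-37. Its run of 8 differing CpGs (chr11:53588284-53588672) stood at 26.2% and 30.2% in B cells, while T cells had 93.0% and 90.4%. A stretch of 18 CpGs around exon 10 (chr11:53590345-53591082), 23.3 kb downstream of the start, was low in all 4 files, between 1.17% and 2.65%. Before Kif3a, chr11:53559001-53560000 had the largest of the called differences, with 75.6% (61.3 to 85.8) and 75.7% (59.9 to 86.6) in B cells and 20.5% (10.8 to 35.5) and 22.6% (13.4 to 35.5) in T cells, adjusted p 1.41e-08. It rested on 3 CpGs and 37 to 53 reads per file, and 2 of the 3 differed by 20 points or more. With 10 reads required in every file only 2 CpGs were left, so it could not be tested at that minimum. After Irf1, chr11:53786001-53787000 stood at 68.6% and 60.7% in B cells and 46.9% and 39.2% in T cells, adjusted p 1.66e-10. Of its 16 CpGs 14 were lower in T cells, 7 of them by 20 points or more, and 2 were higher by 20 points or more. With limma its adjusted p was 0.307, and its difference was -17.7 points without the female B file and -17.8 without the male T file.

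**Figure D5:**
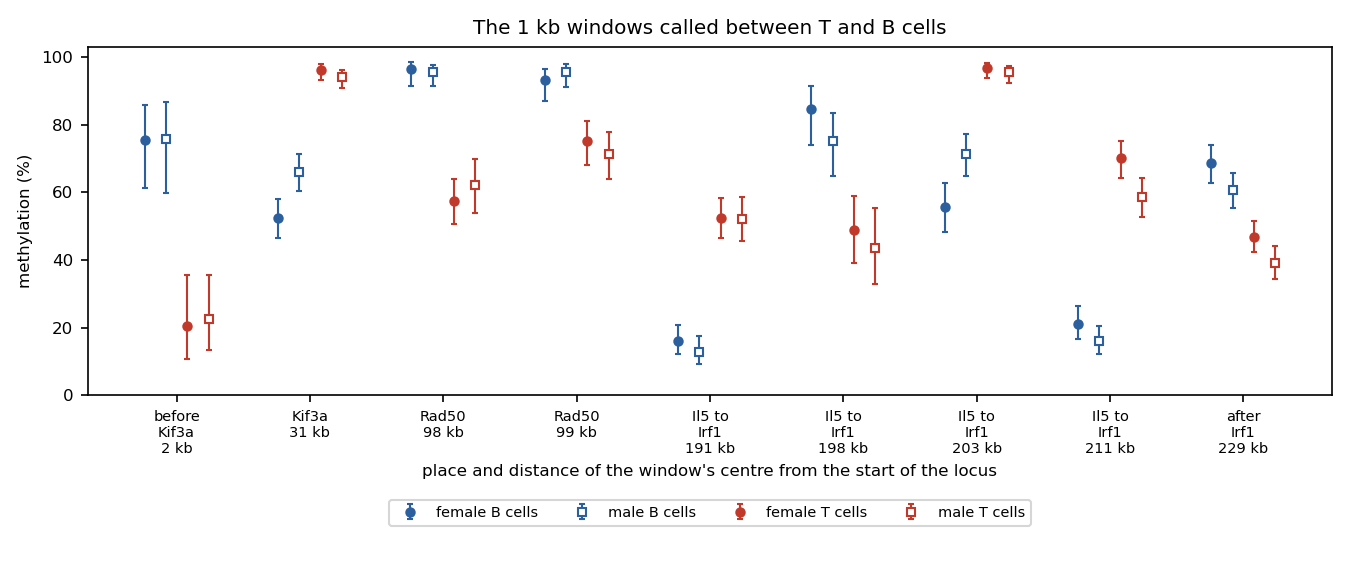
Methylation (%) of the 9 called 1 kb windows, in order along the locus, with 1 point per file and bars for the 95% Wilson interval. B cells are blue and T cells red, females filled circles and males open squares. In each window both T files lie on the same side of both B files, with 5 windows lower in T cells and 4 higher. The windows were called on the mean of these differences, so this is no separate check.

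Smaller differences lay around the cytokine genes. Within the noncoding stretch of Il4, chr11:53609001-53610000, 9.17 kb downstream of the Il4 start, was low in both cell types, at 23.4% and 22.7% in B cells and 20.4% and 29.0% in T cells. So was chr11:53605001-53606000, at 24.3% and 38.5% in B cells and 23.7% and 17.2% in T cells. Its difference was -0.598 points in females and -21.3 in males, adjusted p 0.00389. Beside it, chr11:53606001-53607000 was lower in T cells in both sexes, at 84.0% and 87.6% in B cells and 66.4% and 68.4% in T cells, a difference of -18.4 points at an adjusted p of 0.00572. The low stretch of T cells across this place (chr11:53605445-53606060, 16 CpGs) was lower in T cells in both sexes, at 25.0% and 32.1% in B cells and 9.17% and 10.3% in T cells. That of B cells (chr11:53605570-53605984, 12 CpGs) had smaller differences of the same sign, at 11.5% and 16.4% in B cells and 2.94% and 4.13% in T cells. Each was delimited by the level in its own cell type, and neither was tested.

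Between Il4 and Il13 the level was 84.6% and 85.4% in B cells and 87.7% and 85.6% in T cells. Higher in T cells were chr11:53621001-53622000, by 11.1 points at an adjusted p of 9.68e-04, and chr11:53622001-53623000, by 12.5 points at 0.00726. The second stood at 56.2% and 59.8% in B cells and 71.9% and 69.1% in T cells. Lower in T cells was chr11:53625001-53626000, at 74.3% and 69.4% in B cells and 64.5% and 55.6% in T cells, adjusted p 0.0212. Within Il4 itself, a window of intron 2 (chr11:53616001-53617000) was 7.81 points higher in T cells, with 86.6% and 84.6% in B cells and 95.4% and 91.4% in T cells, adjusted p 0.00393. All of these were under 20 points.

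Upstream of Il13, chr11:53636001-53637000 with 44 CpGs, at -1.80 kb from the start, was low in both cell types, at 7.81% and 8.03% in B cells and 6.87% and 5.25% in T cells, adjusted p 0.505. The 6 windows overlapping Il5 ranged from 83.1% to 100% over the 4 files.

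Low stretches, taken as 3 or more neighbouring CpGs each under 50% in the pooled reads of a cell type and at most 500 bp from the next, numbered 27 in T cells and 26 in B cells. Of the T cell stretches 20 (74.1%) overlapped one of B cells, and of the B cell stretches 19 (73.1%) overlapped one of T cells, against 75.8% and 76.9% over all chromosomes. The 7 of T cells that did not included the pair in Rad50 and 1 between Il4 and Il13 (chr11:53625373-53625499), at 33.8% and 27.6% in B cells and 15.5% and 13.5% in T cells. The 7 of B cells that did not included 2 between Il4 and Il13, of which chr11:53622622-53622738 stood at 14.3% and 14.8% in B cells and 32.6% and 25.9% in T cells. Upstream of Il13, chr11:53637809-53637882 stood at 23.1% and 26.2% in B cells and 49.1% and 47.1% in T cells. These levels chose the stretches and were not tested. Of 2019 CpGs with 10 or more reads in all files, 25 (1.24%) were at least 30 points lower and 40 (1.98%) at least 30 points higher in T cells in both sexes, against 0.945% and 0.772% of such CpGs over all chromosomes. These shares were not tested, and neighbouring CpGs are not independent.

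The GATA core AGATAA was present in 6 of the 9 called windows, in 105 of the 225 windows of the locus (46.7%) and in 48.4% of all windows tested. The STAT6 motif was present in 2 of the 9, in 28.0% of the windows of the locus and in 26.5% of all.

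Females and males were called as different in 0 of the 225 windows, against 0.00103% of 1950708 autosomal windows. That share is too small for a count of 0 to set the locus apart. The quasi-binomial model gave 13 windows of the locus at an unadjusted p under 0.05 and a largest difference of 11.2 points. With limma 0 autosomal windows were called in all, so its 0 in the locus is no separate check.

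Genes that act with the cluster were described from a list of 18, holding regulators, receptors and other cytokines of type 2 immunity. Of their promoters 1 of 18 was called lower in T cells and 0 higher, against 0.484% and 0.432% of all promoters, with a median difference of -0.754 points against -0.147 for all genes. The one called was Ccr8, a chemokine receptor of Th2 and regulatory T cells, at 93.2% and 92.0% in B cells and 26.7% and 35.0% in T cells, adjusted p 2.12e-06. Of the bodies 2 of 18 were called lower and 0 higher, against 0.230% and 0.0892% of all bodies, with a median of -0.977 points against -0.439 for all genes. They were Ccr8 and Satb1, a chromatin organizer of T cells, whose body stood at 69.1% and 68.9% in B cells and 39.6% and 39.7% in T cells, adjusted p 0.00113.

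The promoter of Gata3, the main Th2 factor, stood between 1.84% and 3.64% in the 4 files and that of Stat6, which acts downstream of the IL-4 receptor, between 0% and 0.684%. The Gata3 body was lower in T cells, by a difference of -7.36 points with an adjusted p of 0.0253, as was that of Il4ra, the receptor chain shared by IL-4 and IL-13, with -7.07 points and 0.0395. Il17rb, a receptor subunit for IL-25, had a promoter at 22.5% and 24.5% in B cells and 7.42% and 10.4% in T cells, adjusted p 2.81e-04. These 3 differences were under 20 points. Higher in T cells, the largest of the list were the promoters of Il10, by 15.15 points, and Il5ra, by 14.35 points. Their adjusted p in the quasi-binomial model was 0.0570 and 0.175.

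By promoter and body level in the 4 files, 8 values in all, the genes nearest to Il4 were Ttll10, Caln1 and Cst8, at Euclidean distances of 2.96, 3.02 and 3.28 points, against a median of 151 over all genes. The other cytokine genes of the cluster were farther off, Il5 at 22.7 points (rank 3725) and Il13 at 24.2 points (rank 4071). These distances use the whole annotated Il4 gene, and the level of its coding transcript alone was nearer to the bodies of Il5 and Il13.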

How the data were processed

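Whole-genome bisulfite sequencing reads of spleen T and B cells were processed by the authors with Trim Galore, FastQC and Bismark 0.13.1 against mm10, as the submitters' processing notes list them. The 4 deposited files, 1 for each sex and cell type, gave for each CpG a methylation fraction and a read count, and every CpG in them had at least 5 reads. Multiplying both gave the number of methylated reads.

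From these, CpGs with 5 or more reads in all 4 files were summed over 1 kb windows, promoters and gene bodies with at least 3 such CpGs. A quasi-binomial model with cell type and sex, leaving 1 residual degree of freedom, was fitted to every feature in Python 3.11.15, with dispersions moderated in limma 3.58.1 (R 4.3.3), the prior coming from features with at least 5 expected reads of either kind, and Benjamini-Hochberg adjustment. The code was tested on simulated data. Alternatives were other read minimums, window sizes, thresholds and priors, cell type alone, limma on log2 ratios, Fisher's exact test in each sex, means over CpGs and leaving out each file. Where a file was left out, cell type was the only term, the spread came from the 2 files of the other cell type (1 residual degree of freedom) and the limma prior, and the lone file was assumed to vary like them.

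The members and lists were chosen with earlier results of these data known. By rule, all members were named, with values for up to 5 called windows in each direction, up to 6 window sequences and the 3 genes nearest to Il4. The printed stretches, windows under the threshold, single-CpG runs and low stretches were picked after their values were seen. A marker gene of the lists is not reported here.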

Additional observations from a re-analysis of the deposited data

Results flagged for a closer look

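Among member promoters, gene bodies and spacers, the T minus B difference had opposite signs in females and males in 6, and the difference between the sexes was not tested in any of them. Of the 225 windows, 75 (33.3%) had opposite signs. For the promoters it was -1.86 points in females and 0.467 in males at Rad50, and 0.984 and -0.0878 at Il5. For the gene bodies it was 1.26 and -2.47 at Il4, -5.25 and 1.81 at Rad50, and 0.679 and -1.39 at Il5. In the spacer between Rad50 and Il5 it was -0.101 and 1.61 points. Taken as means over CpGs, both promoters and the Il4 and Rad50 bodies had the same sign in both sexes, while the promoters of Il4 and Il13 then had opposite signs. For the Rad50 body, B and T cells were then at 85.4% and 83.8% in females and 85.0% and 83.7% in males. Each sex had a single file per cell type, so these values have no replicate check.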

How the results depend on the processing

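The 9 called windows (5 lower, 4 higher in T cells) became 22 (11 and 11) at a threshold of 10 points (4.19% of all windows called), 0 (0 and 0) with the prior from all windows, 16 (7 lower, 9 higher) of 365 in 500 bp windows (2.74% of all) and 5 (2 lower, 3 higher) of 117 in 2 kb windows (1.40% of all), against 2.08% of all 1 kb windows. A threshold of 30 points gave 3 lower and limma 2 lower, with 1.04% and 1.02% of all windows called. Leaving out each file gave 7 to 11 windows, with 3 to 7 lower and 4 to 4 higher, the 3 coming without the male T file. Of the 98 alternative values of the named windows, 18 were no longer called. Their sign could not change where only the threshold, prior, model or test differed, since the difference was the same. Nor could it with a file left out, since both T files lay on one side of both B files. With 10 reads required it could have changed and did not. The window with the largest difference gave no value with 10 reads required, since only 2 of its CpGs met that minimum. The causes of the other changes were not tested.

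Member promoters and bodies were called in 0 cases under every alternative run. The Kif3a promoter difference changed sign as a mean over CpGs (0.566) and with 500 bp to either side (0.638). Over the fits that leave out each file it ranged from -1.10 to 0.453, that of Rad50 from -1.59 to 0.196 and that of Il5 from -0.837 to 1.73. Body differences ranged from -1.63 to 0.426 for Il4, -4.22 to 0.775 for Rad50, -1.01 to 0.301 for Il5 and -6.88 to -0.528 for Irf1, the last without the male T file and -0.927 without the female B file. The Il13 promoter ranged from -2.77 to -0.337, and the Il4 promoter difference was 0.113 as a mean over CpGs. The level of the locus was 0.205 points as a mean over CpGs and -0.188 to 1.77 when each file was left out. A single file per group limits all of these.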
